A study of Mus musculus with 6 samples.

Results

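The receptor tyrosine kinase gene Ret, the genes of its 4 GDNF family ligands (Gdnf, Nrtn, Artn, Pspn) and those of its 4 GPI-anchored coreceptors (Gfra1, Gfra2, Gfra3, Gfra4) were followed in mouse enterospheres kept with or without the thyroid hormone T3. The members were taken by name as 1 signalling family, and each of the 9 had 1 probe set with a single gene symbol, among 19938 genes measured in that way. Enterospheres are floating balls of cultured enteric neural progenitors. Those used here were grown with the growth factors EGF and FGF from dissociated gut muscle of newborn C57BL/6 mice, then spent a day in a differentiation medium before some dishes received T3 (triiodothyronine). The group T3 held 3 samples with T3 at 100 nM for 1 day (the labels write the unit as nm, read here as nM) and the control group held 3 samples without T3 in the same medium. All animals were of 1 strain with no genetic change named in the labels, each sample was made from 3 mice, and each was hybridised to 1 whole-transcript array of total RNA.

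RET carries the signal of the GDNF family of growth factors, which do not bind it alone. Each ligand first binds a coreceptor held to the membrane by a lipid anchor, and the pair then joins RET molecules, which activates their kinase. By preferred pairing, GDNF binds GFRα1, neurturin (Nrtn) binds GFRα2, artemin (Artn) binds GFRα3 and persephin (Pspn) binds GFRα4. In the gut, GDNF from the mesenchyme and muscle layer drives the survival, division and migration of RET-positive neural crest cells, and neurturin supports the projections of enteric neurons. Loss of Ret, Gdnf or Gfra1 leaves most of the bowel without enteric neurons in mice.

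Over all genes the SD of the difference between 2 arrays was 0.137 to 0.243 within a group and 0.223 to 0.267 between groups. The T3 target genes Klf9 and Hr rose with log2 changes of 1.86 ± 0.08 (SE) and 1.92 ± 0.07 (SE). Markers of enteric neural progenitors were bright, with control means from 8.88 to 12.16 on the log2 scale (9 genes, among them Sox10, Ednrb and Ngfr). Markers of enteric glia and Schwann cells (10 genes, Sox10 again among them) were at 7.30 to 12.33. Bright values therefore do not tell these cells apart. Markers of fibroblasts and mesenchyme (12 genes) were at 7.33 to 13.27. The spheres may thus have been a mixture of cells, though RNA of whole spheres does not show which cells carried these genes. Markers of macrophages and leukocytes (12 genes) were at 4.26 to 6.15, and the values carry no detection calls. As a guide to dim signal, the 95th percentile of 1027 olfactory receptor genes lay between 5.38 and 5.59 on the 6 arrays.

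With T3, 2 of the 9 genes passed the test over all genes, and both were coreceptor genes that rose. Gfra3, the coreceptor gene of artemin, rose 1.51-fold, and Gfra2, the coreceptor gene of neurturin, rose 1.31-fold. Ret itself was 1.20-fold higher, with groups that did not overlap, and did not pass. No ligand gene passed. Gdnf was the ligand gene farthest from no change, with a control signal 1.25-fold that of the T3 samples. The test was limma's, and a gene counts as called where its p, adjusted by Benjamini-Hochberg over all 19938 genes, was under 0.05. By that rule 3.1% of all genes were called, 2.28% as higher and 0.823% as lower with T3. The groups did not overlap for 4 of the 9 members, 3 higher and 1 lower, against 19.5% of all genes (11.9% higher and 7.55% lower). The median log2 change was 0.11 over the members and 0.0088 over all genes. RNA came from whole spheres, so more or fewer cells of a type and more or less RNA per cell cannot be told apart.

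**Figure D1:**
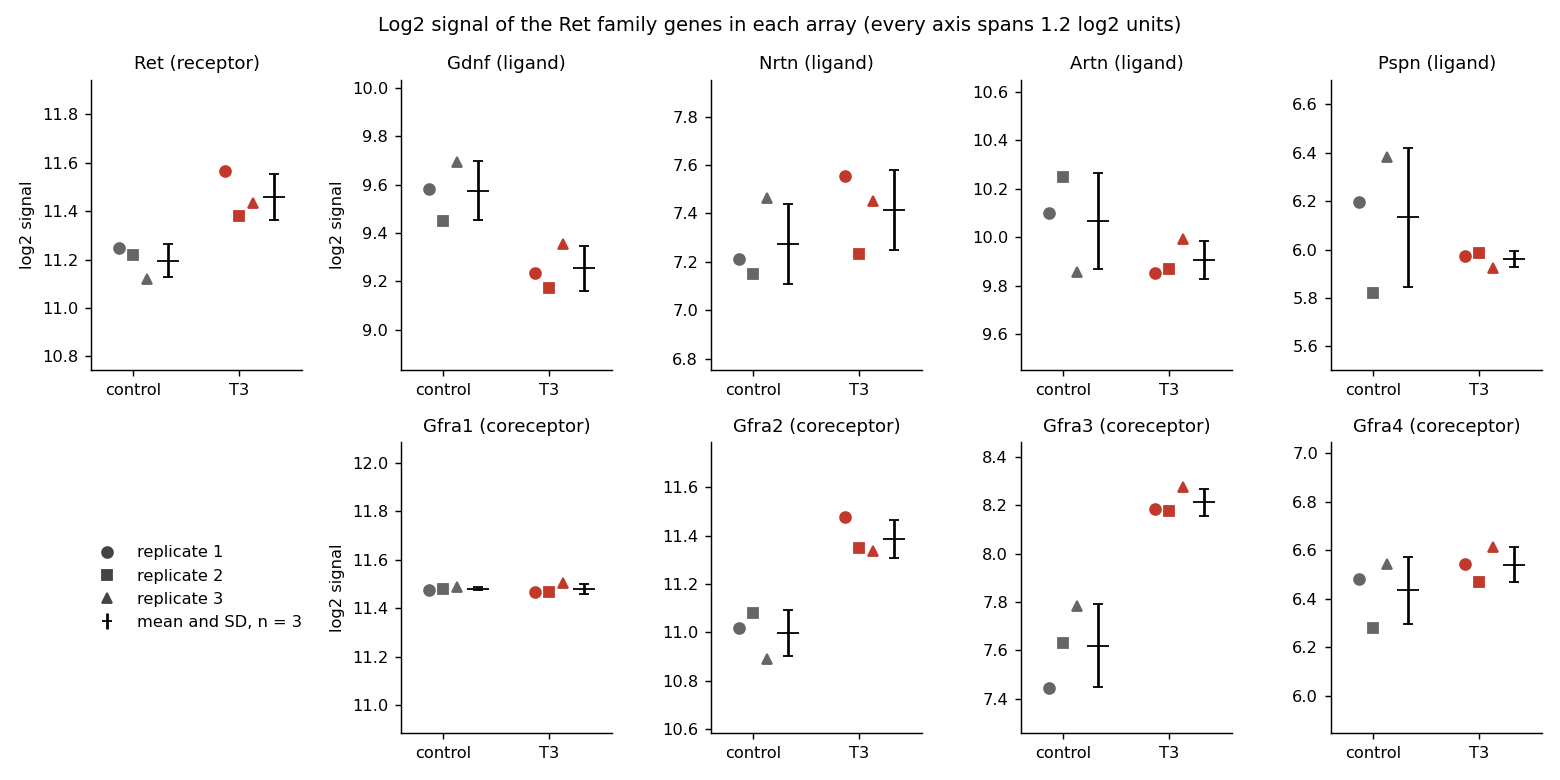
Log2 signal of the 9 genes in every array, control in grey and T3 in red, with the mean and SD (n = 3) beside the points; every vertical axis spans 1.2 log2 units. The T3 arrays lie above all control arrays for Ret, Gfra2 and Gfra3 and below them for Gdnf, while the groups overlap for the other 5 genes.

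Among the ligands, Gdnf had the lower signal with T3. GDNF is the survival and guidance factor of the enteric neural crest, and its probe set (10422844) gave log2 values of 9.58, 9.45 and 9.69 in control replicates 1 to 3 and of 9.24, 9.17 and 9.35 in T3 replicates 1 to 3. All T3 arrays were below all control arrays. The log2 change was -0.32 ± 0.09 (SE), with a 95% interval from -0.52 to -0.12 for this gene taken alone and an adjusted p of 0.109 (limma). It therefore did not pass over all genes, although limma with trend and robust fitting gave an adjusted p of 0.0444 and limma with array quality weights one of 0.00688. These were the only 2 of 16 alternatives that called it. The 6 limma fits without 1 array gave adjusted p from 0.062 to 0.343. The weighted fit called 3548 of all genes and gave control replicate 1 a weight of 6.18.

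The promoter of Gdnf is shown because thyroid hormone receptors bind DNA at copies of a short half-site, and Gdnf was the member with a RefSeq promoter window whose groups did not overlap. RefSeq windows (GRCm38.p6), from 250 bases before a transcript start to 50 after it, matched 6 of the 9 members by symbol, with 8 windows in all. Ret, Gfra2 and Gfra3 had no entry. The 250 bases before the first of 2 Gdnf starts (chr15:7809798-7810047, plus strand, 5′ to 3′) read as follows, with a half-site and a TATA box in capitals.
Gdnf: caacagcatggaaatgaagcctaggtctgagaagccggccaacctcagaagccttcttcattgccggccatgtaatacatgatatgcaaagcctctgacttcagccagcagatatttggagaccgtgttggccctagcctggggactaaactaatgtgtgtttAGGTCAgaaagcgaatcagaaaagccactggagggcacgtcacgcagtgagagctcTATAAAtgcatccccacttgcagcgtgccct
The half-site AGGTCA began 87 bases before the start and the TATA box TATAAA 31 bases before it. Searched on both strands, AGGTCA was present in 16.3% of all 32851 windows and in 2 of the 8 windows of members, here and 36 bases into 1 of the transcripts of Gfra4. The TATAAA letters were in 13.6% of all windows and in 1 of the 8. A direct repeat of the half-site with 4 bases between (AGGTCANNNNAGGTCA) was in 0.0152% of all windows and in none of the members' 8. Such matches describe the letters only.

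The other ligand genes gave values that overlapped between the groups. Neurturin, the ligand of GFRα2, had log2 values for Nrtn (probe set 10452147) of 7.21, 7.15 and 7.46 in controls and 7.56, 7.23 and 7.45 with T3, a change of 0.14 ± 0.11 (SE). Artemin, the ligand of GFRα3 and a guidance factor of sympathetic nerves, had values for Artn (10515558) of 10.10, 10.25 and 9.86 in controls and 9.85, 9.87 and 9.99 with T3, a change of -0.16 ± 0.11 (SE). Control replicate 3 was the highest control array for Nrtn and the lowest for Artn, and it reached into the range of the T3 arrays in both.

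Persephin, the ligand of GFRα4, had values for Pspn (10452210) of 6.19, 5.82 and 6.38 in controls and 5.97, 5.98 and 5.92 with T3. The 3 T3 values lay close together inside the wide control range, and the log2 change was -0.17 ± 0.13 (SE). The signal of Pspn lay between the 37.3 and the 42.7 percentile of the genes on each array, a little above the guide to dim signal, and whether it stands above background is unknown. The adjusted p of Nrtn, Artn and Pspn lay between 0.608 for Artn and 0.719 for Nrtn. Their 95% intervals ran from -0.12 to 0.39 for Nrtn, from -0.40 to 0.08 for Artn and from -0.47 to 0.12 for Pspn, so changes within these bounds could not be told from none with 3 arrays per group.

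Among the coreceptors, Gfra3 showed the rise with the smallest adjusted p of the family. GFRα3 binds artemin and is known from sympathetic and sensory neurons and from Schwann cell precursors and glia. Its probe set (10458183) read 7.44, 7.63 and 7.78 in control replicates 1 to 3 and 8.19, 8.17 and 8.28 in T3 replicates 1 to 3. All T3 arrays were above all control arrays, and the T3 values were tighter. The control mean was 7.62 ± 0.17 (SD, n = 3) and the T3 mean 8.21 ± 0.06 (SD, n = 3), which gives a log2 change of 0.59 ± 0.09 (SE) with a 95% interval from 0.38 to 0.81 and an adjusted p of 0.0145 (limma). The call was lost without T3 replicate 2 (adjusted p = 0.0550), T3 replicate 3 (0.0667) or control replicate 1 (0.0577), with log2 changes that stayed between 0.50 and 0.67 over all 6 fits that left out 1 array.

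Gfra2 rose less, from a bright signal. GFRα2 binds neurturin and is found on enteric neurons, where its loss thins the cholinergic fibres of the gut wall. Its probe set (10416340) read 11.02, 11.08 and 10.89 in controls and 11.48, 11.35 and 11.33 with T3. The lowest T3 array lay above the highest control array. The control mean was 11.00 ± 0.10 (SD, n = 3) and the T3 mean 11.39 ± 0.08 (SD, n = 3), which gives a log2 change of 0.39 ± 0.08 (SE) with a 95% interval from 0.21 to 0.57 and an adjusted p of 0.0378 (limma). This call was near the threshold. Of the fits without 1 array only that without control replicate 2 kept it (adjusted p = 0.0398), and the other 5 gave 0.108, 0.117 and 0.101 without T3 replicates 1, 2 and 3 and 0.144 and 0.0941 without control replicates 1 and 3. It was also lost after centring on the 75th percentile (0.0510).

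Gfra1 held the tightest values of the family. GFRα1 is the coreceptor of GDNF and marks enteric progenitors together with RET. Its probe set (10468722) read 11.48, 11.48 and 11.49 in controls and 11.47, 11.47 and 11.50 with T3. The groups overlapped within a range of 0.04 on the log2 scale, and the change was -0.0017 ± 0.0631 (SE), with a 95% interval from -0.15 to 0.14 and a sign that turned with the scaling and the arrays used. Its signal lay between the 98.6 and the 98.7 percentile of the genes on every array.

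Gfra4, whose product binds persephin and is known mainly from the thyroid and adrenal gland, had dim and overlapping values. Its probe set (10487787) read 6.48, 6.28 and 6.54 in controls and 6.54, 6.47 and 6.61 with T3. The log2 change was 0.11 ± 0.09 (SE), with a 95% interval from -0.09 to 0.31 and an adjusted p of 0.728 (limma).

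The signalling receptor gene Ret was higher with T3 by a small amount that did not pass the test. RET is the shared kinase of all 4 ligands and an early marker of the enteric neural lineage that stays on in neurons. Its probe set (10547227) read 11.25, 11.22 and 11.12 in controls and 11.57, 11.38 and 11.43 with T3. The lowest T3 array was above the highest control array, by a gap smaller than the range of the T3 arrays. The control mean was 11.20 ± 0.07 (SD, n = 3) and the T3 mean 11.46 ± 0.09 (SD, n = 3), which gives a log2 change of 0.26 ± 0.08 (SE) with a 95% interval from 0.09 to 0.44 for this gene taken alone and an adjusted p of 0.139 (limma). Limma with trend and robust fitting called it (adjusted p = 0.0270), as did limma with array quality weights (0.0418).

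**Figure D2:**
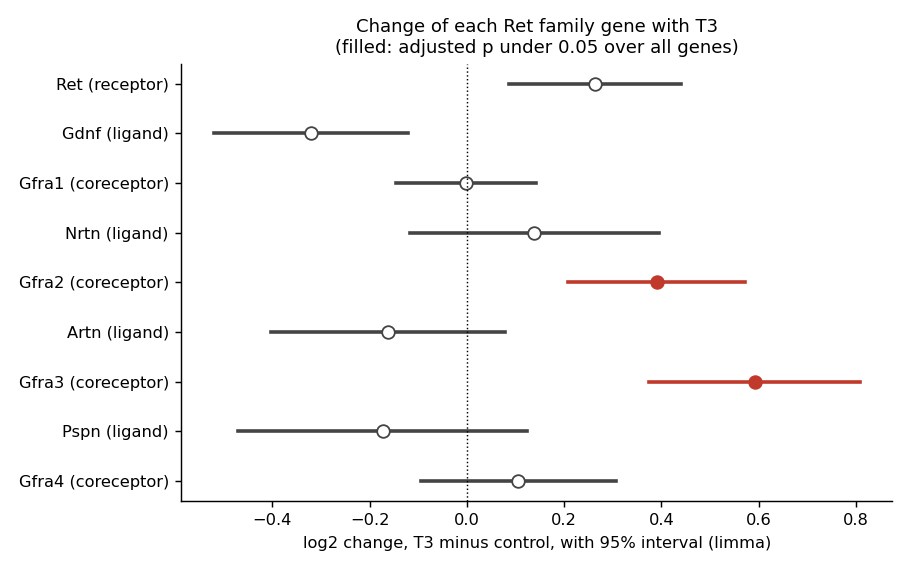
Log2 change with T3 (horizontal axis) and its 95% interval from limma for each gene, ligands next to their preferred coreceptors; filled red points passed over all genes. Gfra3 at 0.59 and Gfra2 at 0.39 are filled, Ret at 0.26 and Gdnf at -0.32 have intervals on 1 side of 0 without passing, and the other 5 intervals include 0.

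The estimated changes of each ligand gene and its preferred coreceptor gene were set side by side. The log2 changes were -0.32 for Gdnf and -0.0017 for Gfra1, 0.14 for Nrtn and 0.39 for Gfra2, -0.16 for Artn and 0.59 for Gfra3, and -0.17 for Pspn and 0.11 for Gfra4. In each pair the coreceptor value was the higher one, and the difference within a pair was not tested.

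Whether the coreceptor genes changed unequally was tested on the difference of their log2 values within each array, for all 6 pairs. The difference Gfra3 minus Gfra1 was -3.86 ± 0.17 (SD, n = 3) in controls and -3.27 ± 0.03 (SD, n = 3) with T3, a difference in change of 0.59. That of Gfra2 minus Gfra1 was -0.48 ± 0.10 (SD, n = 3) and -0.09 ± 0.09 (SD, n = 3), a difference in change of 0.39, and Gfra3 minus Gfra4 gave 0.49. In these 3 pairs the groups did not overlap, and the two-sided exact permutation test gave p = 0.1, the smallest that 3 against 3 arrays allow, and 0.2 adjusted over the 6 pairs. Gfra2 minus Gfra4 gave 0.28 (exact permutation p = 0.2), Gfra3 minus Gfra2 gave 0.20 and Gfra1 minus Gfra4 gave -0.11 (exact permutation p = 0.3 for both), each 0.3 after adjustment. With its floor above 0.05 this test cannot settle whether a pair differed. In limma fits across all genes on each gene's difference from the second gene of the pair, an alternative chosen after the data were seen, the interval of the difference in change was 0.38 to 0.80 for Gfra3 minus Gfra1 (adjusted p = 0.0130), 0.20 to 0.58 for Gfra2 minus Gfra1 (0.0435) and 0.21 to 0.76 for Gfra3 minus Gfra4 (0.0197), each at 95%. The other 3 pairs did not pass. These limma fits gave adjusted p of 0.419 for Gfra2 minus Gfra4, 0.172 for Gfra3 minus Gfra2 and 0.798 for Gfra1 minus Gfra4. Their 95% intervals ran, in that order, from 0.01 to 0.56, from -0.09 to 0.49 and from -0.38 to 0.16. The interval of Gfra2 minus Gfra4, taken alone, thus lay wholly on the positive side. Each adjustment ran over the differences of all genes from the second gene. Adjusted p therefore cannot be compared between pairs with different second genes. Gfra1 itself changed by only -0.0017, so the fits of Gfra3 and Gfra2 against it nearly repeat the tests of those genes alone. The fits on differences from Gfra4 all had the same SE of 0.139. That SE was pooled over genes and is not the spread of a single pair.

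Marker genes of the cells that carry these receptors were read on the same arrays. The mean log2 signal of 20 neuron markers was 8.84 to 9.01 in the control arrays and 9.12 to 9.21 in the T3 arrays, with 4 genes higher (Prph, Snap25, Nos1 and Dbh), 0 lower and 16 not called. Dbh was dim, with a control mean of 5.17, below the guide to dim signal, and a T3 mean of 6.08. The mean of 10 enteric glia and Schwann cell markers was 10.34 to 10.44 in controls and 10.43 to 10.48 with T3, with 2 genes higher (Lgi4 and Gpr37l1), 1 lower (Kcnj10) and 7 not called. The 9 progenitor markers had 0 calls and means of 11.15 to 11.21 in controls and 11.06 to 11.14 with T3. Over all genes 2.28% were called higher and 0.823% lower. Of the 20 neuron markers 15 had a change above 0 and 5 below. Tubb3, Elavl4 and Map2 were at 0.03, 0.02 and 0.05. The mean of the neuron list thus moved in the same direction as Gfra2, Gfra3 and Ret, without overlap between groups. So did the means of the smooth muscle and interstitial cell of Cajal lists. For smooth muscle the highest control array (7.726) and the lowest T3 array (7.739) nearly touched. The mean of the progenitor list moved the other way, with 8 changes below 0 and 1 above. Its lowest control array (11.146) and highest T3 array (11.145) nearly touched. The part of these lists in the results of Gfra2, Gfra3 and Ret was not tested.

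For Gdnf, the cells of interest are those of the muscle layer and mesenchyme. The mean of 12 smooth muscle markers was 7.61 to 7.73 in controls and 7.74 to 7.81 with T3, with 2 genes higher (Myh11 and Myocd), 2 lower (Acta2 and Tagln) and 8 not called. Myocd was dim, with a control mean of 5.15, below the guide to dim signal, and a T3 mean of 5.69. The mean of 12 fibroblast and mesenchyme markers was 10.79 to 10.87 in controls and 10.83 to 10.88 with T3, with Thy1 higher at 1.24, Twist1 lower at -0.49 and 10 not called. Of the fibroblast and mesenchyme genes 8 of 12 had a change below 0 and 4 above, and the median was -0.02. The T3 arrays lay below all controls for Twist1, Pdgfrb (-0.26) and Col1a2 (-0.24). They lay above all controls for Thy1 and Dcn (0.10). Over all genes 7.55% lay below and 11.9% above without overlap. The part of these cells in the lower Gdnf signal was not tested. Markers of interstitial cells of Cajal (8 genes) had means of 9.02 to 9.20 and 9.26 to 9.34, with Ano1 and Prkcq higher.

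**Figure D3:**
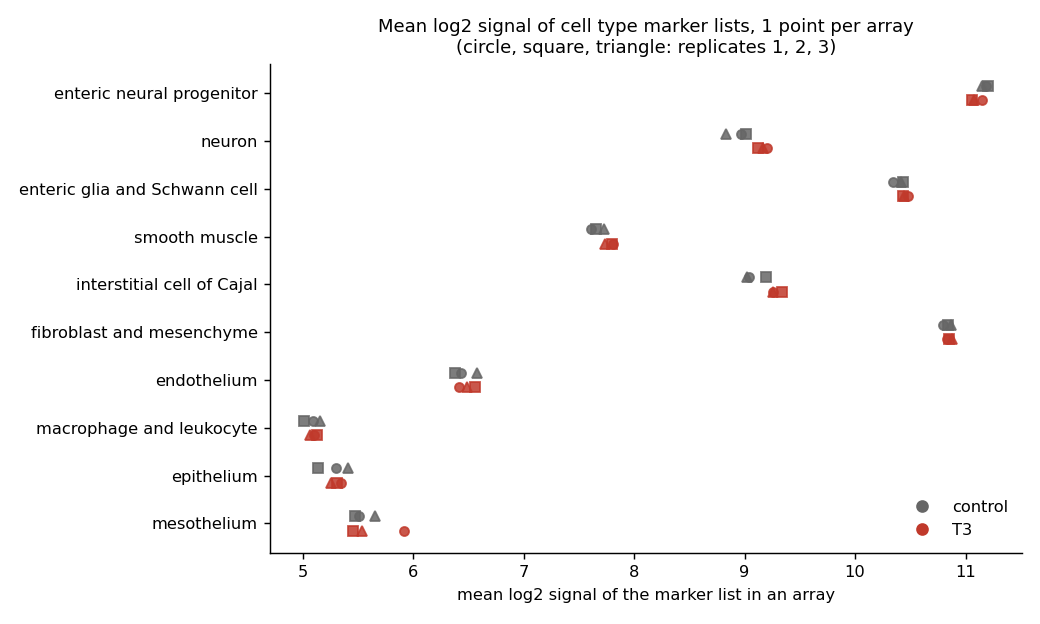
Mean log2 signal (horizontal axis) of each cell type marker list in each array, control in grey and T3 in red, with a symbol for each replicate number. The T3 points lie to the right of all control points for neuron, interstitial cell of Cajal and smooth muscle markers, to the left for enteric neural progenitor markers, and overlap with them for the other lists.

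Of 86 other genes of the pathway, each counted once over 4 lists, 9 were called, 4 higher and 5 lower. That is 10.5% of them, against 3.1% of all genes (4.65% against 2.28% higher, 5.81% against 0.823% lower). The 4 lists were brighter, with array means in controls of 7.93 to 9.81, against 6.95 to 6.99 over all genes. Without the dimmest 50% of genes, 745 of 9969 were called, against 618 of 19938 in the main fit. The shares therefore compare unlike genes, and an excess of calls in the pathway was not tested. The lists held the adaptors and effectors that relay the signal inside the cell, other receptors and modulators of RET, genes that act upstream of Ret in the enteric neural crest, and genes known to depend on GDNF and RET in the ureteric bud of the kidney, the other organ that this pathway builds.

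None of the 30 measured adaptors and effectors was called, with 6 of them (20%, against 13.7% of all genes) at an unadjusted limma p under 0.05 and a median log2 change of -0.03. The nearest were Map2k1, the kinase that activates ERK, at -0.30 (adjusted p = 0.0679, limma), the adaptor genes Shc3 at -0.37 (0.0893) and Shc2 at 0.24 (0.157), and Dok5, a docking protein of RET, at 0.24 (0.274). Over all 4 lists, 12 genes were called with trend and robust fitting and 23 with array quality weights, against 876 and 3548 over all genes.

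Among 25 other receptors and modulators, 1 was higher and 1 lower, with a median of -0.08. Sorl1, a sorting receptor that takes up GDNF and its receptors, read 6.48, 6.65 and 6.48 in controls and 8.01, 7.81 and 7.82 with T3. It rose 2.54-fold, a log2 change of 1.34 ± 0.09 (SE) with an adjusted p of 0.000305 (limma), and passed without any 1 array. Spry4, a feedback inhibitor of receptor tyrosine kinase signalling, read 10.37, 10.50 and 10.50 in controls and 10.06, 10.00 and 10.06 with T3. It fell by 0.41 on the log2 scale (adjusted p = 0.0191), a call lost without T3 replicate 2 or 3 or control replicate 1 or 3 (adjusted p up to 0.0927). The ERK phosphatase genes Dusp4 and Dusp6 were at -0.27 and -0.25 and the phosphatase gene Ptprj at -0.22, none of them called. Gfral, the distant relative of the coreceptors that binds GDF15, had a control mean of 3.94, below the guide to dim signal.

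Among 21 upstream genes, 3 were higher and 1 lower, with a median of -0.01. Rarb, a retinoic acid receptor gene, read 7.22, 7.56 and 7.21 in controls and 8.45, 8.14 and 8.22 with T3, a rise of 1.92-fold (log2 change 0.94 ± 0.12, SE; adjusted p = 0.00578, limma). It passed without any 1 array. Edn3, whose product signals through the endothelin B receptor in the same crest cells, and Phox2a, which encodes a homeodomain factor of autonomic neurons, were the others that rose, at 1.69 and 0.58. Insm1, a factor of immature neurons, fell by 0.37 on the log2 scale. Phox2a did not pass without control replicate 1 (adjusted p = 0.0527), and Insm1 passed in only 1 of the 6 fits without 1 array, that without control replicate 2 (adjusted p up to 0.0982). Sox10, a transcription factor that acts on the Ret enhancer, was at -0.05 (adjusted p = 0.874) and Ednrb, the endothelin B receptor gene, at -0.22 (0.470).

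Of 12 genes known to depend on GDNF and RET in the ureteric bud, 0 were higher and 3 lower, with a median of -0.20. The change was above 0 in 4 of them and below in 8. Whether these genes depend on GDNF and RET in enterospheres was not tested. Over all genes 2.28% were called higher and 0.823% lower. Etv4, an ETS transcription factor, read 6.88, 6.84 and 7.12 in controls and 6.15, 6.20 and 6.58 with T3, a log2 change of -0.64 ± 0.13 (SE) with an adjusted p of 0.0348 (limma). Mmp14, a membrane-bound matrix protease, read 11.69, 11.80 and 11.77 in controls and 11.28, 11.37 and 11.38 with T3, a log2 change of -0.41 ± 0.07 (SE). Met, the receptor gene of hepatocyte growth factor, was at -0.76 ± 0.12 (SE). The T3 arrays lay below all control arrays in these 3 genes, which were picked by their calls on the same arrays. Over the 12 listed genes they lay below in 7 and above in 1, against 7.55% and 11.9% of all genes. The list as a whole was not tested. The calls of Etv4, Met and Mmp14 were lost in some fits without 1 array. Etv4 kept it without T3 replicate 3 or control replicate 2, Met without T3 replicate 1 or control replicate 2 or 3, and Mmp14 only without control replicate 2, with adjusted p of up to 0.133, 0.0515 and 0.0784. The relatives and partners Etv5 and Dusp6 were both at -0.25 and Sox8 at -0.41 (adjusted p = 0.0562), while Cxcr4, a chemokine receptor gene, was at 0.41 (0.162).

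**Figure D4:**
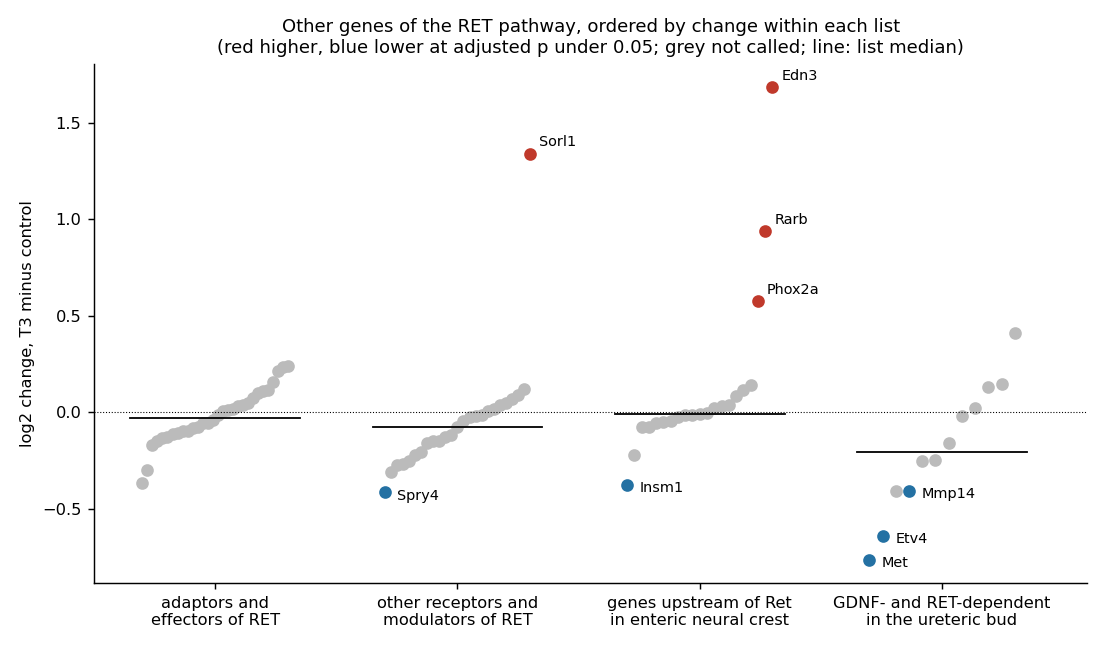
Log2 change with T3 (vertical axis) of the other genes of the pathway in 4 lists, each point 1 gene ordered by its change, with the list median as a line. Sorl1, Edn3, Rarb and Phox2a stand out as called and higher, and Met, Etv4, Spry4, Mmp14 and Insm1 as called and lower, while the adaptors and effectors hold no called gene.

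The genes whose pattern over the 6 arrays was most like that of the family were taken by Pearson's r among 9968 other genes brighter on average than the median gene. The arrays fall into the T3 and control groups, so a high r reflects that difference first, and it is given as a description. For Ret they were Cystm1, Cluh, a gene of mitochondrial mRNA handling, and Zbtb20, a transcription factor (each r = 0.997), and 157 genes had r above 0.95. For Gfra2 they were the chromatin remodeller gene Chd3 (r = 0.999), the synaptic adhesion gene Igsf9b (0.998) and Camk2b, a calmodulin-dependent kinase of neurons (0.998), with 274 genes above 0.95. For Gfra3 they were the sugar metabolism gene Mpi, the synaptic vesicle chaperone gene Dnajc5 and the neuronal gene Dpysl4 (each r = 0.996), with 219 above 0.95. Of these 9 genes Chd3 and Camk2b were called, with log2 changes of 0.54 and 0.58. Within the family, Ret and Gfra2 had r = 0.972 with each other and -0.841 and -0.939 with Gdnf.

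**Figure D5:**
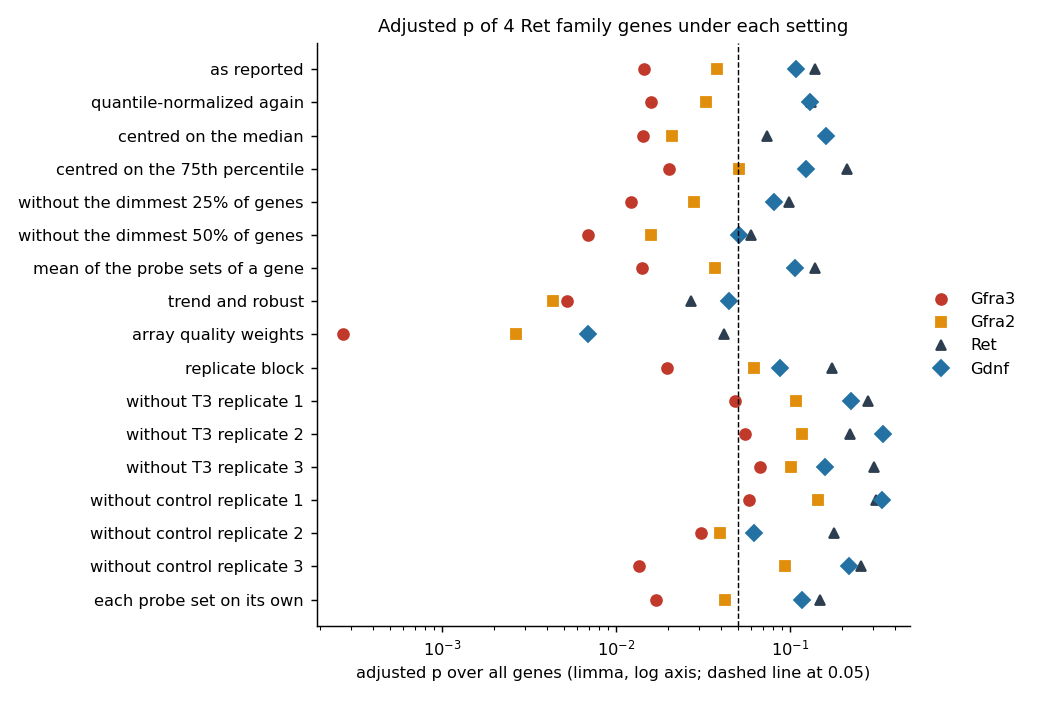
Adjusted p over all genes (log axis) of Gfra3, Gfra2, Ret and Gdnf in the fit as reported and under each of 16 alternatives, with a dashed line at 0.05. Gfra3 lies left of the line except in 3 of the fits without 1 array, Gfra2 crosses it in 7 settings, and Ret and Gdnf lie left of it only with trend and robust fitting and with array quality weights.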

How the data were processed

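The values deposited by the authors are log2 signals of 35556 probe sets. The submitters' processing notes name RMA and Partek 6.5; which settings and genome build they used is not given in the sources used here. RMA as usually run aligns the distributions of the arrays, and array background compresses changes of dim genes. Probe sets with exactly 1 symbol in the platform annotation (21789) were used, the brightest per gene, giving 19938 genes. T3 minus control was fitted in R 4.3.3 by limma 3.58.1 (lmFit, then eBayes, two-sided, no filter), with Benjamini-Hochberg adjustment over all genes. Errors marked SE are limma's. The procedure was tested on simulated data. The labels do not say that the samples of a group came from separate preparations, so the p-values cover the spread of these samples only, which may be technical. Their number, 3 per group, limits the precision. No 2 arrays were duplicates.

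The members and gene lists were chosen with earlier results of these data known. Named were all members, called genes of each list and up to 4 others of smallest p, Klf9 and Hr, and the 3 genes most like Ret, Gfra2 and Gfra3. Sox10, Ednrb, Ngfr, Pdgfrb, Col1a2, Dcn, Tubb3, Elavl4, Map2 and the called markers were named after their values were seen. Alternatives were rescaling, filters on dim genes, other use of several probe sets, trend and robust fitting, array quality weights, the replicate block and leaving out each array.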

Additional observations from a re-analysis of the deposited data

How the results depend on the processing

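Over the 16 alternatives Ret, Gdnf, Nrtn, Artn, Pspn, Gfra2, Gfra3 and Gfra4 kept the direction of their change wherever they were tested, with Pspn and Gfra4 absent when the dimmest 50% of genes were left out. The change of Gfra1, reported as -0.0017, turned to 0.0281 after centring on the median, to 0.00417 with array quality weights, and to 0.00408, 0.00478 and 0.0012 without T3 replicate 1, T3 replicate 2 and control replicate 3, within a range of -0.0139 to 0.00478 without 1 array. The number of members called, 2 as reported, was 1 after centring on the 75th percentile, 4 with trend and robust fitting, 4 with array quality weights, 1 with the replicate block, and 0 to 2 without 1 array. Over all genes, 618 as reported became 3548 with array quality weights, which gave control replicate 1 a weight of 6.18 and 3 other arrays weights of 0.414 to 0.421, and 191 to 640 without 1 array. Of the pathway genes, 9 as reported became 23 with array quality weights and 3 to 9 without 1 array. Of all calls 73.5% were higher, against 81.5% and 67.6% after centring on the median and the 75th percentile. Whether same-numbered samples share a preparation is not stated in the labels, and the data did not settle it: same-numbered arrays had correlations of their deviations of 0.179, the highest of all 9 combinations, 0.0171 and 0.000167. The samples were treated as unpaired. With the numbers as a replicate block, Gfra2 and Insm1 lost their calls (adjusted p = 0.0620 and 0.0572) and Gfra3 kept its own (0.0196). The differences between coreceptor changes kept their sign in all fits run. Limma on the differences called those of 0.594 (Gfra3 minus Gfra1), 0.392 (Gfra2 minus Gfra1) and 0.486 (Gfra3 minus Gfra4), which the exact test could not. Those with Gfra1 nearly repeat the tests of Gfra3 and Gfra2 alone, and the SE of that with Gfra4 was pooled over genes.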
